A study of Homo sapiens with 4 samples.

Results

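The 5 genes described here are the receptors of the AXL family, AXL, TYRO3 and MERTK, and their ligands, GAS6 and PROS1. They were chosen by symbol as the known members of this receptor and ligand family, 5 of the 46427 genes in the deposited gene table, 25280 of which had a count in at least 1 library. All 5 had enough reads to enter every comparison. The receptors are transmembrane tyrosine kinases with an extracellular part of immunoglobulin-like and fibronectin type III domains. GAS6 and protein S, the product of PROS1, are vitamin K-dependent secreted proteins whose carboxylated end binds phosphatidylserine on dying cells, while their other end engages the receptors. GAS6 binds all of the family, whereas protein S is a ligand of TYRO3 and MERTK and is also a plasma anticoagulant cofactor. In lung cancer cells AXL is known for its association with mesenchymal features and with resistance to inhibitors of other receptor kinases, and it is a known target of the microRNA miR-34a.

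The study profiled RNA of NCI-H1299 (H1299), a human line from a non-small cell lung cancer, and of a derivative with a knockout of DDX21, a nucleolar RNA helicase, in 4 libraries with 1 library per group. The groups were DDX21 KO cells transfected with a miR-34a mimic, non-treated DDX21 KO cells, H1299 cells transfected with the mimic, and non-treated H1299 cells. For the transfected cells the final RNA concentration was 25 nM and harvest followed after 48 h, while no harvest time is given for the non-treated cells. The labels do not say how DDX21 was deleted or whether the KO cells are 1 clone, nor do they mention any control RNA for the non-treated cells, so each ratio of miR-34a over non-treated cells includes the transfection itself. Without replicates no difference has a replicate check, no p-value was computed, and each comparison is one between libraries. Intervals in brackets are 95% counting intervals and cover counting error only.

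Library totals ran from 26868358 to 36263145 estimated counts, at which a floor of 3 counts corresponds to 0.0840 to 0.111 CPM. DDX21 itself had 182 and 206 CPM in the miR-34a and the non-treated KO library, against 588 and 722 CPM in the H1299 libraries of the same treatments, so its reads were fewer but not absent under the KO label. Markers of other cells that use these receptors were low. The summed CPM of 7 macrophage markers lay between 2.52 and 4.38, most of it ITGAM at 2.24 to 4.38 CPM. That of 7 fibroblast markers lay between 0.408 and 1.43. PTPRC, CSF1R, AIF1, LUM and THY1 were at 0 in all 4 libraries. The summed CPM of 6 endothelial markers was 6.10 and 3.97 in the miR-34a and non-treated KO libraries, against 1.70 and 0.812 in those of H1299. Most of it was KDR, at 5.77 and 3.75 CPM in these KO libraries against 1.64 and 0.616 in those of H1299. PECAM1, TEK and CLDN5 were at 0 throughout. The 7 epithelial markers summed to 2457 and 1597 CPM in the miR-34a and non-treated KO libraries, against 1528 and 749 CPM in those of H1299. KRT8 and KRT18 made up nearly all of it, with 617 and 1838 CPM in miR-34a KO cells. EPCAM had 2 to 18 counts per library and KRT7 22 to 64, while KRT19 had at most 6. NKX2-1, a lineage marker of lung epithelium, was at 0 in 3 of the 4 libraries. CDH1 was at 0 in both KO libraries and had 1 and 5 counts in miR-34a and non-treated H1299.

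The sequences the miR-34a comparisons turn on are the mature microRNA, from RefSeq (chromosome 1, chr1:9151735-9151756, minus strand, GRCh38.p14), and the AXL site, from the GRCh38 genome with GENCODE 29 transcripts (chr19:41259927-41259956, plus strand, in the 3′ UTR of the final exon). Capitals in the microRNA mark its seed, bases 2 to 8. Capitals in the site mark the 8-mer CACTGCCA, which holds both 7-mers searched, CACTGCC and ACTGCCA, on the transcript's strand.
hsa-miR-34a-5p: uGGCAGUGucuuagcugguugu
AXL site: cctctcaggatccaagctaagCACTGCCAc
The match starts at base 44 of the 3′ UTR in the 3 GENCODE 29 models matched by name to the AXL transcripts of the authors' table. These models have 3′ UTRs of 1862, 390 and 300 bases; in the authors' table all 3 transcripts run to the same end of the gene within 1 base, so the shorter UTRs are those of the GENCODE models. AXL was the only one of the 5 genes with a match in an annotated 3′ UTR. Over 19120 genes with a 3′ UTR, 21.2% held either 7-mer and 5.33% held the 8-mer. Upstream of the 3′ UTR, TYRO3 held 2 matches and MERTK 1 match when each 7-mer was counted by itself. Counted so, a single 8-mer such as the AXL site gives 2 matches. GAS6 and PROS1 held none anywhere in their annotated transcripts. A match is a description of these letters and not of binding.

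AXL had the highest level per transcript length of the receptor tyrosine kinases examined in all 4 libraries, and it had several-fold fewer reads with the mimic in both lines. The gene (NCBI gene 558, chromosome 19, 41219203 to 41261766, plus strand) encodes the GAS6 receptor. It had 14689 estimated counts and 448 CPM in miR-34a KO cells, against 50055 counts and 1859 CPM in non-treated KO cells. In H1299 it had 10591 counts and 322 CPM with miR-34a, against 54170 counts and 1517 CPM in non-treated cells. Both miR-34a libraries lay below both non-treated libraries. The log2 ratio of miR-34a over non-treated cells was -2.05 (-2.08 to -2.03) in KO cells, a level 4.15-fold lower, and -2.24 (-2.27 to -2.21) in H1299, a level 4.71-fold lower. In bulk RNA, fewer cells with the transcript and less of it per cell cannot be told apart.

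Against all genes tested, this placed AXL at rank 19 from the lowest of 13382 genes in KO cells and at rank 37 from the lowest of 13597 genes in H1299. AXL was the 1 member called lower by at least 2-fold in each line, and no member was called higher. Over all genes tested, 1.69% were called lower and 1.62% higher in KO cells, while 4.27% were called lower and 3.62% higher in H1299. The all-gene median log2 ratio was 0.00 in both lines. The ratio in KO cells minus that in H1299 was 0.18 (0.14 to 0.22), under the 2-fold difference that 2.07% of 13964 genes reached in the lower and 2.13% in the higher direction. No member reached it.

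The authors' deposited table of comparisons lists 908 genes and holds AXL alone among the 5. Its name points to a selection by 2-fold change and unadjusted p-value, so being listed or not is not a separate result. In the authors' deposited table the signed fold change of miR-34a over non-treated cells was -4.05 in KO cells (p = 0.0194, adjusted p = 1) and -4.71 in H1299 (p = 0.0102, adjusted p = 1). For KO over H1299 the authors' deposited table gives 1.42 with miR-34a (p = 0.544, adjusted p = 1) and 1.22 in non-treated cells (p = 0.729, adjusted p = 1). Which test gave these p-values is not stated.

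**Figure D1:**
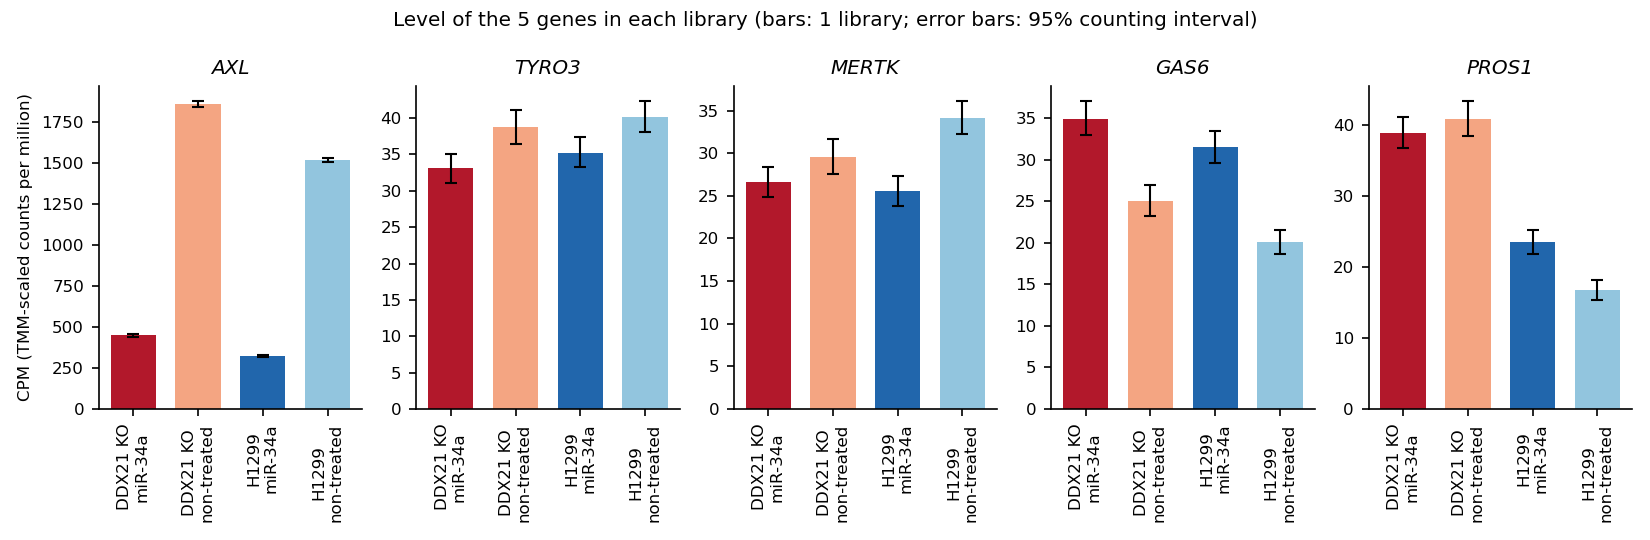
CPM of AXL, TYRO3, MERTK, GAS6 and PROS1 in each of the 4 libraries, 1 bar per library, with 95% counting intervals as error bars and a separate vertical axis per gene. AXL has 448 and 322 CPM in the miR-34a libraries of KO cells and H1299, against 1859 and 1517 CPM in the non-treated libraries, while the other 4 genes stay between 16.7 and 40.9 CPM.

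TYRO3 and MERTK, the other receptors, had ratios within 2-fold in every comparison. TYRO3 (gene 7301, chromosome 15, 41557675 to 41583586, plus strand) had 33.1 CPM in miR-34a KO cells against 38.7 in non-treated KO cells, while the H1299 libraries had 35.2 CPM with miR-34a against 40.2 without. Its log2 ratio of miR-34a over non-treated cells was -0.23 (-0.35 to -0.10) in KO cells and -0.19 (-0.30 to -0.08) in H1299. The difference of the ratios, KO minus H1299, was -0.04 (-0.20 to 0.13). On the FPKM scale, which follows the transcript division given further on, the TYRO3 ratio in H1299 was -0.75. TYRO3P, a near-identical pseudogene copy, had 11 to 15 counts per library, and the labels do not say how reads shared by both were counted.

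MERTK (gene 10461, chromosome 2, 111898479 to 112029561, plus strand), the receptor best known from the clearance of apoptotic cells by phagocytes, had 26.6 CPM in miR-34a KO cells against 29.6 in non-treated KO cells. In H1299 it had 25.5 CPM with miR-34a against 34.1 in non-treated cells. The log2 ratio was -0.15 (-0.29 to -0.01) in KO cells and -0.42 (-0.55 to -0.29) in H1299, so the non-treated H1299 library was the high one. The difference of the ratios, KO minus H1299, was 0.26 (0.08 to 0.45). MERTK lay at the 31.0 percentile of all genes tested in KO cells and at the 19.5 percentile in H1299, and TYRO3 at the 23.7 and 33.8 percentiles.

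Of the ligands, GAS6 had a higher level with miR-34a in both lines and PROS1 in H1299 only, unlike AXL. GAS6 (gene 2621, chromosome 13, 113820549 to 113864067, minus strand) had 35.0 CPM in miR-34a KO cells against 25.1 in non-treated KO cells, while the H1299 libraries had 31.5 CPM with miR-34a against 20.1 without. Both miR-34a libraries lay above both non-treated ones. Its log2 ratio was 0.48 (0.34 to 0.62) in KO cells and 0.65 (0.51 to 0.79) in H1299, with a difference of -0.17 (-0.36 to 0.02). These ratios lay below 2-fold, at the 91.6 and 91.1 percentiles of all genes tested in KO cells and H1299. GAS6-AS1, an antisense gene within GAS6, was listed at 0 in all libraries, and strand use in the counting is not stated, so its reads and those of GAS6 may not have been told apart.

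PROS1 (gene 5627, chromosome 3, 93873033 to 93980003, minus strand) differed most between the lines. It had 39.0 CPM in miR-34a KO cells against 40.9 in non-treated KO cells, while the H1299 libraries had 23.5 CPM with miR-34a against 16.7 without. Both KO libraries lay above both H1299 libraries. The log2 ratio of miR-34a over non-treated cells was -0.07 (-0.19 to 0.05) in KO cells, an interval that includes no change, and 0.49 (0.34 to 0.65) in H1299. The difference was -0.56 (-0.75 to -0.37). The pseudogene PROS2P, a near copy of PROS1, was not analysed here.

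**Figure D2:**
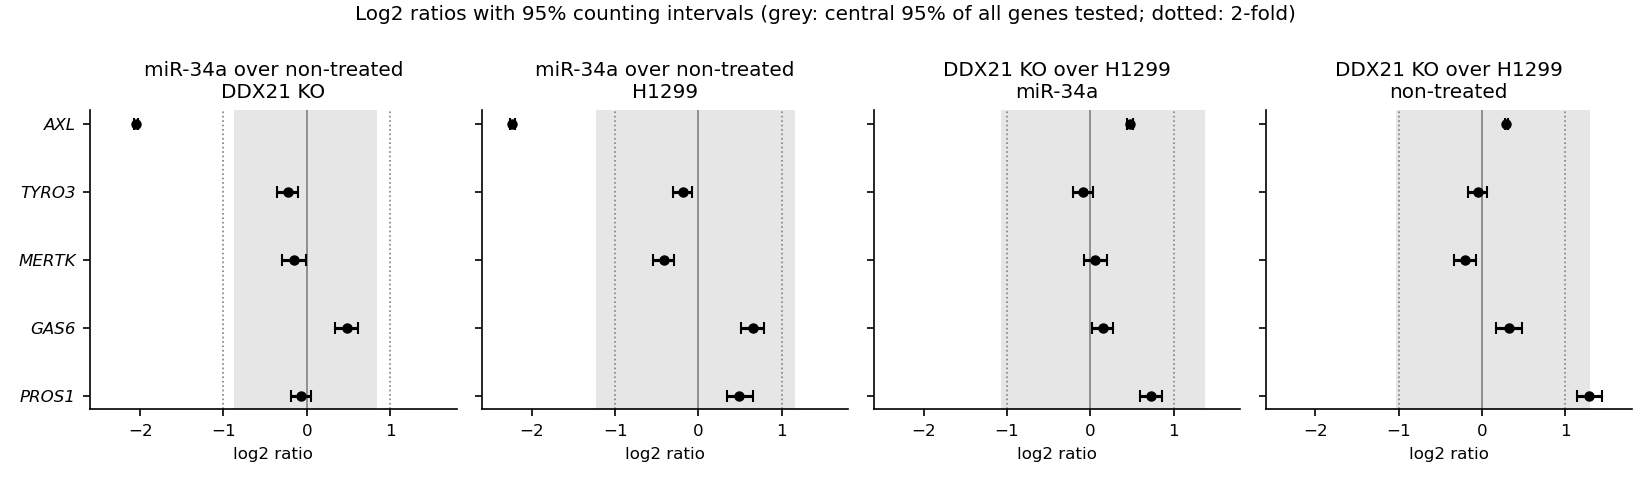
Log2 ratio of each member in the 4 comparisons, with 95% counting intervals as bars, the central 95% of all genes tested shaded grey and 2-fold marked by dotted lines. With miR-34a, AXL lies outside the grey band in both lines, at -2.05 in KO cells and -2.24 in H1299, and the other members lie inside it in every comparison, PROS1 being near the edge at 1.29 in non-treated KO over H1299 cells.

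DDX21 KO cells and H1299 cells differed in PROS1 more than in any other member. In non-treated cells the PROS1 log2 ratio of KO over H1299 was 1.29 (1.14 to 1.44), a level 2.44-fold higher and rank 346 from the highest of 13600 genes. It was the 1 member called higher and none was called lower, beside 3.79% of all genes called higher and 2.75% called lower. With miR-34a the PROS1 ratio was 0.73 (0.60 to 0.86), and no member was called in either direction, beside 3.99% of 13621 genes called higher and 2.96% called lower. These comparisons share no library, but each also enters a miR-34a ratio above. AXL had a log2 ratio of 0.48 (0.44 to 0.51) with miR-34a and 0.29 (0.28 to 0.31) without treatment, while GAS6 had 0.15 (0.03 to 0.27) and 0.32 (0.17 to 0.47). TYRO3 had -0.09 (-0.21 to 0.03) with miR-34a and -0.05 (-0.17 to 0.06) without treatment, and MERTK had 0.06 (-0.08 to 0.20) and -0.21 (-0.34 to -0.08).

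Compared per transcript length, by the authors' deposited FPKM, AXL stood far above the other members in every library. AXL had 85.7 FPKM in miR-34a KO cells against 352 in non-treated KO cells, while the H1299 libraries had 60.4 FPKM with miR-34a against 286 without. It held 89.5% of the FPKM summed over the 3 receptors in miR-34a KO cells against 96.9% in non-treated KO cells, and 85.9% against 95.1% in the corresponding H1299 libraries. AXL was thus 22.3 times TYRO3 per length in miR-34a KO cells against 79.9 times in non-treated KO cells, and 14.8 against 41.1 times in H1299. The 41.1 rests on a TYRO3 FPKM of 6.95 in non-treated H1299, which follows the transcript division given further on. Below AXL the order was GAS6, PROS1, MERTK and TYRO3 in both miR-34a libraries, and PROS1, GAS6, MERTK and TYRO3 in non-treated KO cells.

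In non-treated H1299 the order below AXL was MERTK, GAS6, TYRO3 and PROS1. There the FPKM ratio of GAS6 over TYRO3 was 1.02 (0.928 to 1.11), an interval that includes 1, while that of MERTK over GAS6 was 1.11 (1.01 to 1.22). In miR-34a H1299 the ratio of PROS1 over MERTK was 1.04 (0.943 to 1.15). For these 2 pairs of neighbours, GAS6 with TYRO3 and PROS1 with MERTK, the order was not resolved by the counts, and every other neighbouring pair had an interval above 1. The intervals take the FPKM as given. For TYRO3 it was 6.95 at 40.2 CPM in non-treated H1299, against 4.40 at 38.7 CPM in non-treated KO cells. This FPKM follows the transcript division given further on, so the place of TYRO3 in non-treated H1299, also against PROS1, is uncertain beyond its interval. The GAS6 level was 1.23 times that of PROS1 in miR-34a KO cells against 0.825 times in non-treated KO cells, while in H1299 it was 1.81 times with miR-34a against 1.62 times without. PROS1 was thus the more abundant ligand per length in the non-treated KO library only.

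Among 58 receptor tyrosine kinases, AXL ranked 1 by FPKM in all 4 libraries, with MERTK at ranks 8 to 10 and TYRO3 at ranks 9 to 11. Over all genes, AXL ranked 679 in miR-34a KO cells against 148 in non-treated KO cells, while in H1299 it ranked 967 with miR-34a against 189 without. The kinases next to it were EPHA2, an ephrin receptor, and RYK, a Wnt co-receptor, in the miR-34a libraries. EPHA2 had 41.0 FPKM in miR-34a KO cells against 24.1 in non-treated KO cells while H1299 had 42.4 FPKM with miR-34a against 31.9 without. AXL came nearest to the next kinase in miR-34a H1299.

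Of the 55 other kinases of the panel, 26 entered the miR-34a comparison in KO cells and 1 was called lower, MET, the receptor of hepatocyte growth factor and another known miR-34a target. In H1299, 23 entered, MET and EPHA7 were called lower, and KDR was called higher. Over all genes tested, 1.69% were called lower and 1.62% higher in KO cells, against 4.27% and 3.62% in H1299. The panel's counts are small and are not read as a result about the panel. MET had 75.3 CPM in miR-34a KO cells against 233 in non-treated KO cells, a log2 ratio of -1.63, while H1299 had 45.4 CPM with miR-34a against 166 without, a ratio of -1.87. EPHA7 had a ratio of -1.70 (-2.11 to -1.36) in H1299 and -0.61 (-1.03 to -0.21) in KO cells. It was the 1 kinase of 26 called in the difference between the lines, at 1.10 (0.57 to 1.63), beside 2.13% of all genes called higher. KDR, the VEGF receptor, had 54 counts with miR-34a against 22 in non-treated H1299. The panel's median log2 ratio was 0.07 in KO cells and 0.01 in H1299, while AXL and MET lay far below it.

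**Figure D3:**
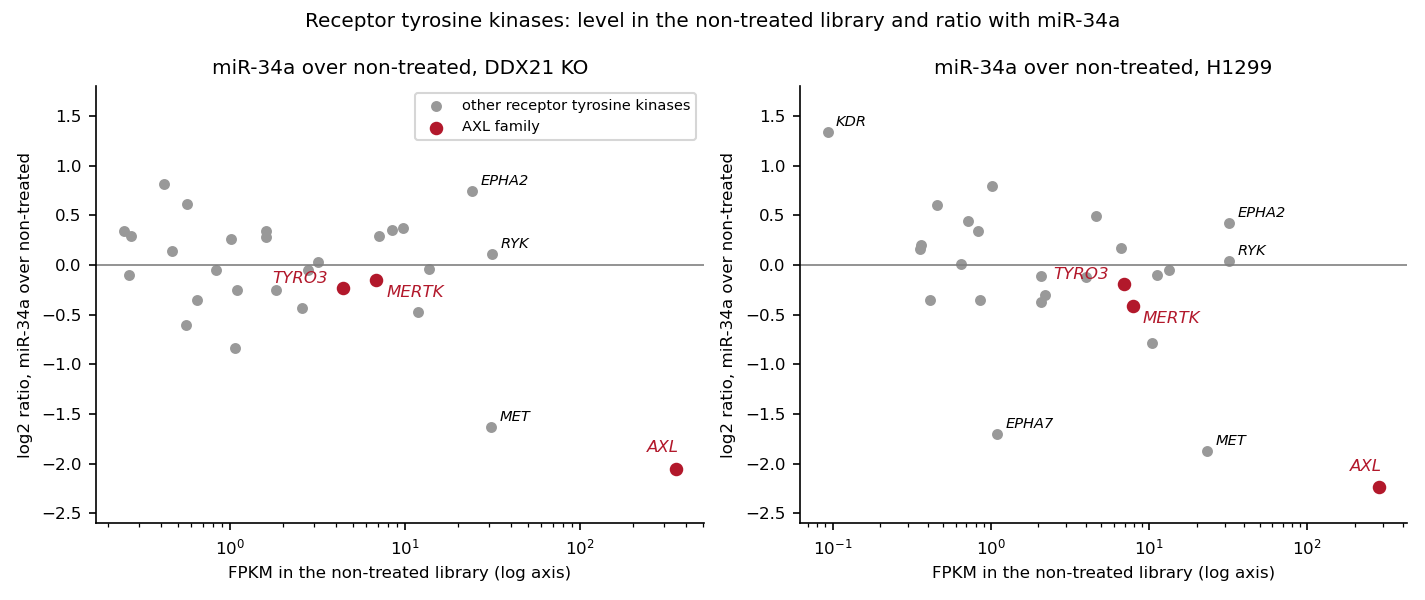
FPKM in the non-treated library (log axis) against the log2 ratio of miR-34a over non-treated cells for the receptor tyrosine kinases that entered, DDX21 KO on the left and H1299 on the right, with the AXL family in red. AXL is the rightmost and lowest point in both lines, at 352 FPKM and -2.05 in KO cells and at 286 FPKM and -2.24 in H1299. TYRO3 lies at -0.23 in KO cells and -0.19 in H1299, and MERTK at -0.15 and -0.42.

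Several other kinases were called between the lines. With miR-34a, 4 of 26 were called higher (against 3.99% of all genes) and 1 lower (against 2.96% of all genes) in KO over H1299 cells, the higher ones being ROR2, EPHA10, KDR and FGFR3 and the lower one EPHA4 at -1.43. ROR2 had 66 counts in KO and 0 in H1299 cells, at least 22.1-fold higher when the 0 is set to the floor of 3 counts, provided that the 0 is not a failed assignment. In non-treated cells 3 of 24 were called higher, KDR at 2.49, EPHA10 at 1.29 and EPHB2 at 1.16, and none was called lower, beside 3.79% higher and 2.75% lower over all genes. Calls leaned to higher in KO cells over all genes too. The panel's median log2 ratio of KO over H1299 was 0.29 with miR-34a and 0.28 in non-treated cells, against an all-gene median of -0.01 and -0.02. AXL, at 0.48 and 0.29, lay near or above the panel's median without being called.

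Partners of the ligands and receptors were read against the shares of all genes called with miR-34a given above, beside which a count of 0 in a short list is near the background. Of the enzymes that mature the ligands, 4 entered in each line and none was called, GGCX, the gamma-carboxylase, having a log2 ratio of -0.05 in KO cells and 0.19 in H1299. Of the genes for adaptors and kinases downstream of the receptors, 23 entered and none was called in either line, with medians of 0.02 in KO cells and 0.14 in H1299. SHC1, an adaptor, had ratios of 0.43 in KO cells and 0.62 in H1299. None of 5 genes of the interferon feedback circuit was called in either line, and none of 5 and 6 other phosphatidylserine receptors and engulfment partners in KO cells and H1299. None of 3 other reported ligands and bridging proteins in KO cells and of 2 in H1299 was called either, with MFGE8 at 0.64 and 0.60.

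A few partners passed the 2-fold threshold. FOSL1, an AP-1 subunit that acts on the AXL promoter, was the 1 of 11 reported AXL regulators called lower in each line. It had 12.5 CPM in miR-34a KO cells against 32.0 in non-treated KO cells, a log2 ratio of -1.35 (-1.53 to -1.19), while H1299 had 11.8 CPM with miR-34a against 55.9 without, a ratio of -2.24 (-2.40 to -2.08). As for AXL, both miR-34a libraries lay below both non-treated ones. PSENEN, a subunit of the gamma-secretase that processes the cleaved receptor stub, was the 1 of 8 shedding and turnover genes called higher in H1299, at 1.27 (1.20 to 1.34), and had 0.78 (0.71 to 0.85) in KO cells, where it was not called. XKR8, a caspase-activated scramblase that exposes phosphatidylserine, was the 1 of 6 exposure genes called higher in H1299, at 1.05 (0.81 to 1.31), and had 0.20 (-0.07 to 0.48) in KO cells.

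Between KO and H1299 cells, TUB, a reported MERTK ligand in mouse phagocytes, was called higher, 1 of 3 in its list. It had 142 counts in KO against 17 in H1299 cells with miR-34a and 130 against 20 in non-treated cells, with log2 ratios of 2.93 and 2.97. ADGRB1, an engulfment receptor also known as BAI1, was called lower in non-treated KO cells at -1.15 (-1.73 to -0.66), 1 of 6 in its list. With miR-34a it lay just under the threshold, at -0.995 (-1.57 to -0.50). TWIST1, a transcription factor of the interferon circuit, was called higher with miR-34a at 1.08 (0.83 to 1.35), 1 of 5 in its list. In non-treated cells TWIST1 had 0.20 (-0.07 to 0.46), an interval that includes no change. In KO over H1299 cells, with miR-34a or non-treated, no gene of the ligand maturation, shedding, relay or AXL regulator lists was called. In these lists 4, 8, 23 and 11 genes entered. Over all genes, 3.99% were called higher and 2.96% lower with miR-34a, against 3.79% and 2.75% in non-treated cells. Beside these shares a count of 0 in a short list is near the background.

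GAS6 shares a start region with GAS6-DT, a long noncoding RNA transcribed in the opposite direction. GAS6-DT had 135 counts in miR-34a KO cells against 92 in non-treated KO cells, while H1299 had 89 with miR-34a against 41 without. Its log2 ratio of miR-34a over non-treated cells was 0.27 (-0.12 to 0.67) in KO cells and 1.20 (0.69 to 1.81) in H1299, and that of KO over H1299 was 0.60 (0.21 to 1.01) with miR-34a and 1.52 (1.03 to 2.14) in non-treated cells. For both genes the miR-34a KO library was the highest and the non-treated H1299 library the lowest. The 100 bases between the starts of the pair are shown because both genes begin at its edges (RefSeq promoter table, GRCh38.p14, chr13:113864077-113864176, minus strand), with capitals at each GGGCGG, read on either strand and here as its complement CCGCCC.
GAS6 and GAS6-DT start region: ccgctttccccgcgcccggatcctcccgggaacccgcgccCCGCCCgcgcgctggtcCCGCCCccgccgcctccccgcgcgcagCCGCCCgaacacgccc
This stretch was 85% G and C, with 20 CG pairs and 3 GGGCGG matches without overlap. Over 35116 promoters, each read over a window of the same 100 bases in length, 31.3% held GGGCGG on either strand. The median window was 60% G and C with 5 CG pairs. Nothing follows from the letters about factor binding.

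The authors' transcript table divided AXL mainly between NM_021913 and NM_001699, which differ by exon 10 of 20, a coding exon of 27 bases in the extracellular part that NM_021913 holds and NM_001699 lacks (chr19:41239694-41239720, plus strand, GRCh38). PROS1 was divided between NM_000313 and NM_001314077, which adds a coding exon of 96 bases, exon 2 of 16 (chr3:93928702-93928797, minus strand, GRCh38). Both exons are shown because the transcript shares turn on them.
AXL exon 10: ggcaagcacagccagtccaccagctgg
PROS1 exon 2 of NM_001314077: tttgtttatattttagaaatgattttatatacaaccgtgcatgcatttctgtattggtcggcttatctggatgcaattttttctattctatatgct
The error of dividing reads between transcripts cannot be had from the deposited values, so the shares are estimates with unknown error.

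The AXL transcripts all had fewer reads with miR-34a, and their shares followed the cell line. NM_021913, with exon 10, took 40.8% of AXL counts in miR-34a KO cells against 37.6% in non-treated KO cells, while in H1299 it took 57.2% with miR-34a against 58.8% without. NM_001699, without it, took 55.5% and 58.0% in the miR-34a and non-treated KO libraries against 38.7% and 37.8% in those of H1299, and NM_001278599, which starts further downstream, took 3.38% to 4.44%. The log2 ratio of miR-34a over non-treated cells was -1.93 in KO cells and -2.28 in H1299 for NM_021913, -2.11 and -2.20 for NM_001699, and -2.30 and -1.93 for NM_001278599. The share without exon 10 was the larger in both KO libraries and the smaller in both H1299 libraries. As a description chosen after the values were seen, the largest share difference of KO and H1299 cells was 16.8 percentage points with miR-34a, which 36.7% of 6788 multi-transcript genes with at least 500 counts per library matched or exceeded, and 21.2 points in non-treated cells, matched or exceeded by 26.7% of 6475 genes. The median gene of this kind differed by 11.7 points with miR-34a and by 11.5 points in non-treated cells.

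**Figure D4:**
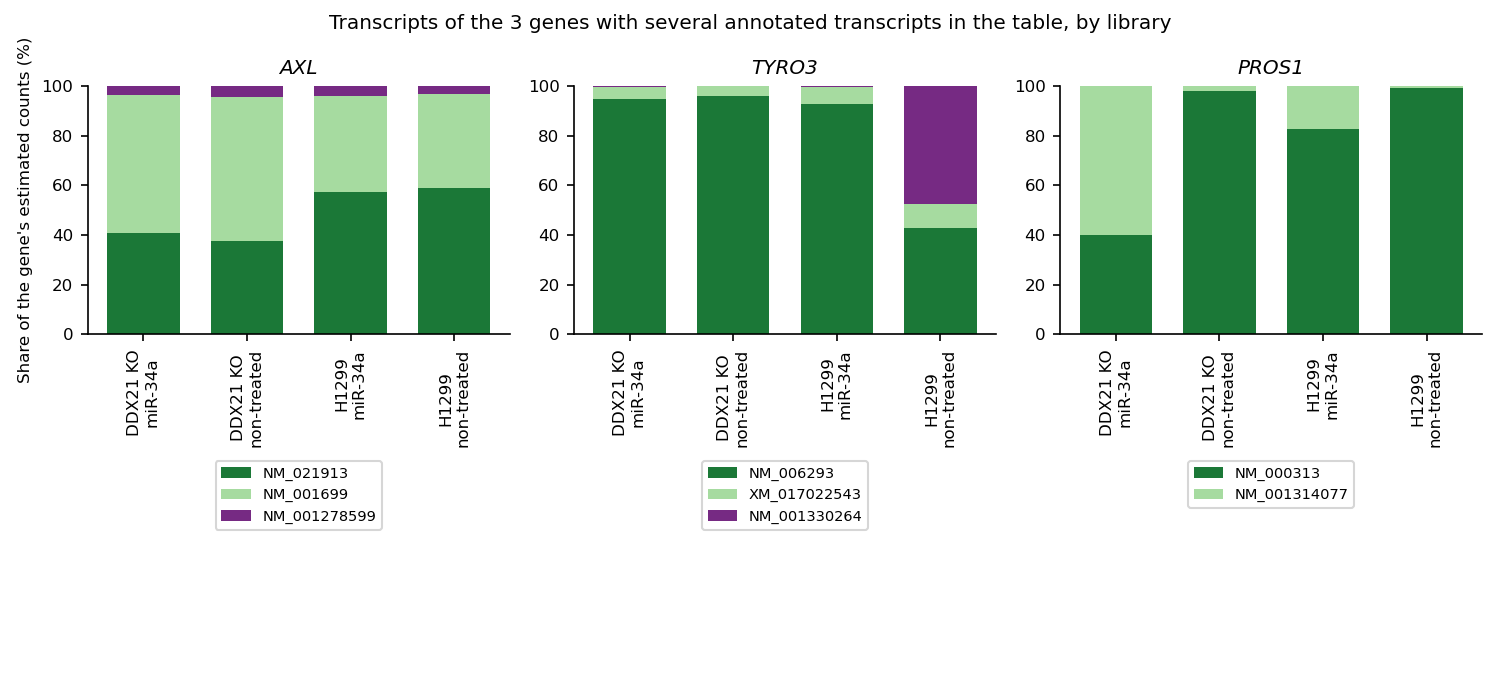
Share of each gene's estimated counts given to each annotated transcript of AXL, TYRO3 and PROS1 in the 4 libraries, as stacked bars that sum to 100%. The exon 10-lacking AXL transcript NM_001699 takes 55.5% and 58.0% in KO libraries and 38.7% and 37.8% in H1299 libraries, NM_001330264 of TYRO3 takes 47.7% in non-treated H1299 alone, and NM_001314077 of PROS1 takes 59.9% in miR-34a KO cells.

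PROS1 and TYRO3 each had a transcript that was prominent in some libraries only. PROS1 NM_001314077 had 765 counts in miR-34a KO cells against 22 in non-treated KO cells, while H1299 had 133 with miR-34a against 6 without, or 59.9% against 2.00% and 17.2% against 1.01% of the gene. Its log2 ratio was 4.73 (4.23 to 5.52) in KO cells and 4.18 (3.43 to 6.06) in H1299, so both miR-34a libraries lay above both non-treated ones. NM_000313 had 512 against 1079 counts in KO cells and 641 against 591 in H1299, in the same order of treatments. The largest PROS1 share difference was 57.9 points in KO cells, matched or exceeded by 2.495% of 6453 genes, and 16.2 points in H1299, by 37.4% of 6869 genes. PROS1 at the gene level thus had a ratio near 0 in KO cells while its 2 transcripts lay on opposite sides of it.

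TYRO3 NM_001330264 had 4 counts in miR-34a KO cells against 0 in non-treated KO cells, while H1299 had 4 with miR-34a against 684 without. Its log2 ratio of miR-34a over non-treated H1299 was -6.74 (-9.18 to -5.94), and non-treated KO cells were at least 172-fold lower than non-treated H1299, with the 0 set to the floor. NM_006293 had 1026 and 1000 counts in the miR-34a and non-treated KO libraries, while H1299 had 1074 with miR-34a against 612 without. The share difference in H1299 with miR-34a was 49.99 points, matched or exceeded by 4.12% of 6869 genes. The non-treated H1299 library alone departed from the other 3, and whether this lies in the division of reads between transcripts was not tested. The authors' gene FPKM of TYRO3 equals the sum over its transcripts, 3.84 to 4.40 in the other 3 libraries and 6.95 in non-treated H1299, while its CPM was 33.1 to 38.7 in the other 3 and 40.2 in non-treated H1299.

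The genes whose levels over the 4 libraries were most like those of AXL were found by the root mean square difference of log2 CPM, each gene centred on its own mean, among 13964 genes. With 4 libraries this is a description. The 8 nearest were ECHS1 (difference 0.06), RRAS (0.10), TSEN15 (0.11), TPD52 (0.13), MIEF1 (0.15), OR3A1 (0.17), CD68 (0.18) and C19orf57 (0.19). ECHS1, a mitochondrial enzyme of fatty acid oxidation, had 22.6 CPM in miR-34a KO cells against 101 in non-treated KO cells, while H1299 had 18.5 CPM with miR-34a against 82.1 without. CD68 is a lysosomal glycoprotein used as a macrophage marker. It had 5.03 CPM against 27.8 in KO cells and 3.44 against 17.1 in H1299, miR-34a before non-treated. Of the macrophage markers above, PTPRC, CSF1R and AIF1 were at 0, while ITGAM had 66 to 144 counts per library. OR3A1 lay at 2.27 CPM or less, and exons of MIEF1 overlap those of another coding gene, so both are uncertain.

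Of these 8 genes, 4 held a 7-mer match in the longest annotated 3′ UTR and 2 of them, RRAS and TPD52, the 8-mer. Over all 19120 genes with a 3′ UTR, 21.2% held either 7-mer and 5.33% the 8-mer. RRAS and TPD52 held 2 sites each, of which only the 8-mer of RRAS is shown. Sites of RRAS (chr19:49635297-49635326, minus strand), TSEN15 (chr1:184094728-184094757, plus strand) and MIEF1 (chr22:39515140-39515169, plus strand), all GRCh38 with GENCODE 29, are set beside that of AXL to show the shared letters, with capitals for the match.
RRAS site: ctcccccagaaaaataaatgtCACTGCCAa
TSEN15 site: taccatcaaatgattcccaccaCACTGCCt
MIEF1 site: ggtcagacagacaaggatggggACTGCCAg
RRAS, a small GTPase of the RAS family, had log2 ratios of -1.79 in KO cells and -2.28 in H1299, and TSEN15, a subunit of the tRNA splicing endonuclease, had -1.82 and -2.45. ECHS1, the nearest of the 8, held no match and had ratios of -2.15 in both lines.

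**Figure D5:**
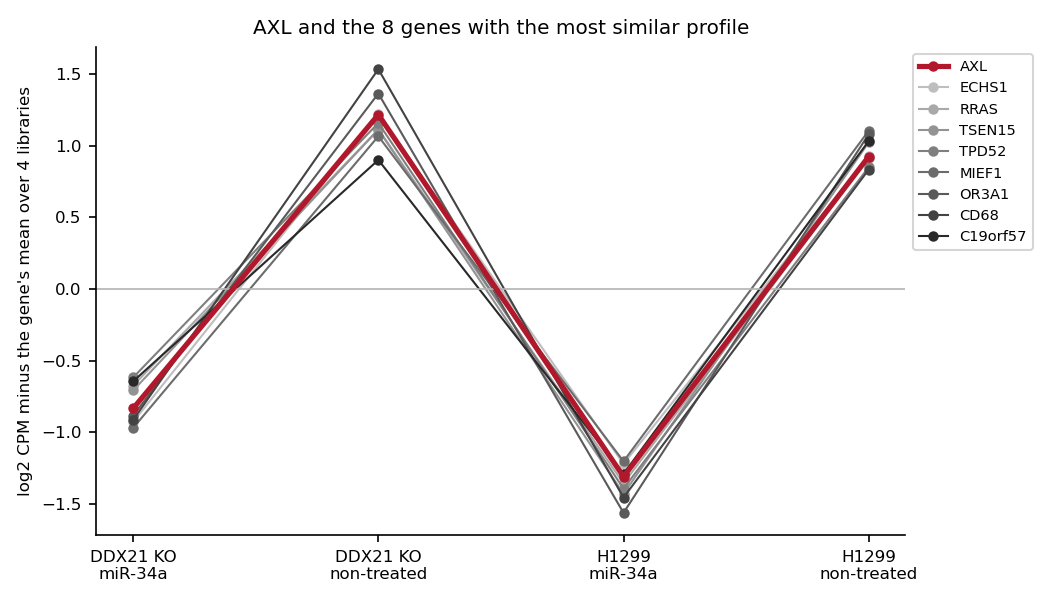
Log2 CPM of AXL (red) and of the 8 genes with the most similar profile (grey) in the 4 libraries, each minus the gene's own mean, with lines that join the libraries for reading only. All 9 genes have both miR-34a libraries below both non-treated libraries, as the rule that chose them requires of genes close to AXL.

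The nearest genes to the other members, 3 for each, did not include another member. They were SLC44A1, FAM162A and HMGN1P3 for TYRO3, SNRPA, TRNC and ANK3 for MERTK, FBXL5, A1BG-AS1 and RAB30 for GAS6, and PCGF5, ASAH2 and MAGED2 for PROS1. Differences were 0.01 for those of TYRO3 and MERTK, 0.01 to 0.02 for those of GAS6 and 0.02 to 0.05 for those of PROS1. PCGF5, a polycomb group protein, had 174 and 182 CPM in the miR-34a and non-treated KO libraries against 103 and 76.2 CPM in those of H1299, the same order of libraries as PROS1 apart from its level.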

How the data were processed

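Ribosomal RNA-depleted total RNA was made into stranded libraries, per the labels' protocols. Bowtie2 2.0.6, TopHat2 2.0.9 and GRCh38 are named in the submitters' processing notes, with no counting tool or strand setting. The authors deposited estimated counts and FPKM per gene and per transcript, per the file headers, and a table with signed fold changes (a score below -1 for lower) and p-values of their own comparisons. Estimated counts are whole numbers as deposited and were used unrounded.

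CPM came from TMM-scaled library sizes (edgeR 4.0.16, R 4.3.3). No edgeR or DESeq2 test was run, because each group had 1 library. A gene entered a comparison with 50 or more reads in any compared library. Log2 ratios used a prior count of 2, with a 95% exact Clopper-Pearson interval of the read split, and a gene was called at 2-fold or more with the interval excluding 0. The difference of ratios used the Poisson variance of the 4 counts. PCR copies and uncertain read assignment make these intervals too narrow. Functions were tested on simulated counts. Sites were searched in the longest GENCODE 29 3′ UTR.

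Named were the members, called genes of each list with at most 1 uncalled example, and the 8 genes nearest to AXL and 3 to each other member. Members and lists were chosen with earlier results of these data known. Alternatives were DESeq2 1.42.0 size factors, library totals, FPKM with 0.1 added, transcript sums, another prior and other count minimums. The result of 1 listed gene is not reported here.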

Additional observations from a re-analysis of the deposited data

Results flagged for a closer look

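PROS1 stood on opposite sides of 0 in the lines with miR-34a over non-treated cells. Its log2 ratio was -0.07 (-0.19 to 0.05) in DDX21 KO cells and 0.49 (0.34 to 0.65) in H1299, and the difference, KO minus H1299, was -0.56 (-0.75 to -0.37). With 1 library per group the difference was not tested beyond counting error, and the interval in KO cells includes no change.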

How the results depend on the processing

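No paired analysis was possible because each group had 1 library. Of 125 alternative values of the members' ratios, none turned a call, 121 kept the call or stayed within the counting interval, and 4 moved beyond it. These 4 were the AXL ratio of KO over H1299 in non-treated cells by library totals (0.32 against 0.29) and 3 TYRO3 values by FPKM with 0.1 added, namely miR-34a over non-treated in H1299 (-0.75 against -0.19), KO over H1299 in non-treated cells (-0.65 against -0.05) and the difference between lines (0.56 against -0.04), the 1 value that changed sign. Counts of called genes followed the count minimum, since it sets how many genes are tested. They are given as lower and higher. For miR-34a in KO cells they were 226 and 217 at 50 reads, 628 and 618 at 10, 127 and 96 at 200, and 955 and 810 with no minimum. For miR-34a in H1299 they were 581 and 492, against 1111 and 999, 383 and 265, and 1385 and 1247 in the same order of minimums. For KO over H1299 with miR-34a they were 403 and 544, against 933 and 1257, 172 and 215, and 1199 and 1585. For KO over H1299 in non-treated cells they were 374 and 516, against 885 and 1191, 160 and 216, and 1052 and 1578. For the difference between lines they were 289 and 297, against 666 and 692, 73 and 79, and 734 and 767. Of 180 list counts, 18 moved, 9 at each of the minimums of 10 and 200. With a minimum of 200, 7 of the 8 genes nearest to AXL were shared, TK1 standing in for OR3A1. All-gene median log2 ratios lay between -0.02 and 0.02 under each scaling. AXL was the 1 member with a 3′ UTR match for the 7-mers and for the 8-mer. Depth limits genes and transcripts with few counts, and biological spread is unknown for all values.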
